A study of Homo sapiens with 6 samples.

Results

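The genes described here encode the protein subunits of the cytosolic ribosome. They were chosen by name alone, as every listed gene named RPL or RPS followed by a number (with A or X where the name carries it), RPLP0 to RPLP2 and RPSA, and pseudogenes and copies ending in L were left out. This gave 77 of the 21850 listed genes, 46 of the large (60S) and 31 of the small (40S) subunit. All 77 passed the filter on low counts that kept 13971 genes for testing.

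RNA-seq was performed on the multiple myeloma cell line MM.1S, which is human and labelled wild type, on day 3 after viral infection. The control group (shNT, 3 libraries) had received a scramble short hairpin RNA and the knockdown group (shPRKCN, 3 libraries) a short hairpin RNA against PRKCN, a protein kinase listed under its current symbol PRKD3. Both groups were therefore infected cells of 1 line, and the sample labels do not say which PRKCN hairpin was used or whether the libraries came from separate infections, so p-values measure the spread between these libraries only. The question was how the transcriptome of myeloma cells differed after PRKCN was depleted, and ribosomal protein genes bear on it because mTOR signaling, which the study examined in these cells, controls their translation.

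A ribosome holds 1 copy of most ribosomal proteins, so cells make them in matched amounts, and surplus subunits are degraded. The mRNAs of nearly all of them start with a C followed by a run of pyrimidines, the 5′ terminal oligopyrimidine (TOP) motif. Through this motif mTORC1, acting by way of LARP1 and the 4E-BP proteins, sets how strongly these mRNAs are translated, a control that total mRNA levels such as those measured here do not show. Plasma cells and the myeloma cells derived from them secrete large amounts of immunoglobulin and depend on high protein synthesis.

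The TOP motif is shown for genes on which the results below turn, because it is the sequence feature by which these mRNAs are regulated together. RefSeq windows (GRCh38.p14) were found for 62 of the 77 genes. RPL30, RPL5 and RPL23A, which are also among the results below, had no window and are not shown. Each printed window runs from 10 bases before to 20 bases from the annotated start, in the direction of transcription, and capitals mark the pyrimidine run that starts with C at or within 5 bases of the start. RPLP0, RPL19 and RPS27 were higher after knockdown, RPL26, RPS6 and RPL11 were lower, and RPS4X is a member without such a run.
RPLP0, chr12:120201092-120201121, minus strand: ggcgcgaggcCCTTCTCTCgccaggcgtcc
RPL19, chr17:39200313-39200342, plus strand: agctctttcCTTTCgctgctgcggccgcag
RPS27, chr1:153990752-153990781, plus strand: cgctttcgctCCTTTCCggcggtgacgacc
RPL26, chr17:8383174-8383203, minus strand: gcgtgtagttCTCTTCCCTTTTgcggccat
RPS6, chr9:19380217-19380246, minus strand: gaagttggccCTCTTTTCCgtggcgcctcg
RPL11, chr1:23691796-23691825, plus strand: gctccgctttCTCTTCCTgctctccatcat
RPS4X, chrX:72277229-72277258, minus strand: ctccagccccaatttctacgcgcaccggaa

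A C followed by at least 4 pyrimidines stood exactly at an annotated start in 46 of these 62 genes (74.2%), against 5.14% of all 27305 genes with a window. Within 5 bases of the start the shares were 85.5% and 25.2%. Exactly at the start, the motif was found in members of every kind of response. It stood there in 9 of the 12 genes with a window that were higher after knockdown. The counts were 5 of the 6 that were lower and 32 of the 44 that did not pass the test. Of other motifs, searched on both strands from 250 bases before to 50 after the start, CCGGAAG (the core of ETS factor sites) was in 35.5% of member genes and 12.2% of all genes. CACGTG, the E-box bound by MYC and MAX, was in 6.45% of member genes and 8.77% of all genes. Such a match is a string of letters and not evidence of binding.

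Library totals lay between 35625564 and 37730003 counts. Levels are given as CPM, counts relative to the library size as adjusted by the TMM method. PRKD3 had 1272, 1298 and 1216 CPM in shNT libraries and 535, 491 and 527 CPM in shPRKCN libraries, 41.0% of the control mean, so the label of each group matched its target. All 8 plasma cell markers had a mean of at least 1 CPM, and their summed level was 3862 to 3927 CPM in shNT and 2527 to 2620 CPM in shPRKCN libraries. The 3 markers of T cells, of which 1 reached 1 CPM, summed to 10.69 to 11.98 CPM in shNT and 27.5 to 31.3 CPM in shPRKCN libraries. The 3 monocyte markers summed to at most 0.299 CPM in any library. The 2 listed stromal markers summed to 0.793 to 1.47 CPM in shNT and 0.484 to 0.685 CPM in shPRKCN libraries, with neither at a mean of 1 CPM. The 1 listed erythroid marker had 2.18 to 3.87 CPM in shNT and 0.922 to 1.10 CPM in shPRKCN libraries, without overlap, and the part of these shifts in the results was not tested.

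Ribosomal protein mRNAs made up a large part of the reads in both groups. Their share of all counts was 10.42%, 10.27% and 10.77% in shNT libraries and 10.48%, 10.999% and 10.80% in shPRKCN libraries. The means were 10.5 ± 0.255% and 10.8 ± 0.261% (SD, n = 3 libraries each), so the groups overlapped and the difference of 0.271 percentage points was about as large as the spread within a group. The difference lay between 0.151 and 0.412 percentage points with any 1 library left out.

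As sums of FPKM (fragments scaled by library size and gene length), which weigh each gene by its length, they took 21.6% in shNT and 22.1% in shPRKCN cells. Among the members the FPKM ran from 0.403 to 4897, as the plot of levels shows. RPS18 of the 40S subunit (4850) was among the 3 highest by mean FPKM over the 6 libraries. Lowest were RPL36A (0.403), RPS10 (4.70) and RPL17 (18.0). The order rests partly on the gene lengths behind the deposited FPKM, which ran from 390 to 7573 bases. In 21 members the length was more than 2 times that of the shortest principal transcript in GENCODE release 29, and for RPS29, the next lowest at 20.3 FPKM, it was 25.2 times (7472 against 296 bases).

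**Figure D1:**
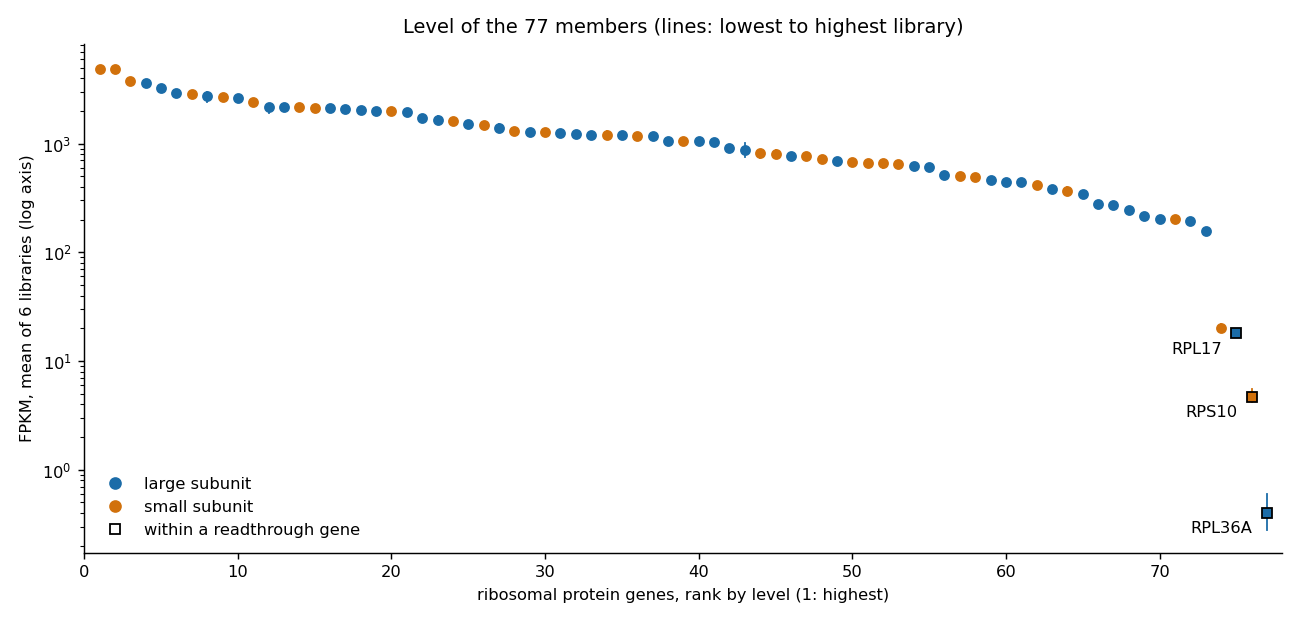
Mean FPKM of the 6 libraries (log axis) for each of the 77 ribosomal protein genes, ordered by level (x axis: rank), with large-subunit genes in blue and small-subunit genes in orange, and lines from the lowest to the highest library. RPL17, RPS10 and RPL36A (squares) lie lowest, from 18.0 down to 0.403 FPKM, and are the 3 members that an annotated readthrough gene overlaps.

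The 3 lowest members share a feature that was noticed after their values were seen. RPL36A, RPS10 and RPL17 are the 3 of the 77 that a RefSeq readthrough gene overlaps on the same strand (RPL36A-HNRNPH2, RPS10-NUDT3 and RPL17-C18orf32). RPL36A had 14, 8 and 13 counts in shNT libraries and 8, 8 and 17 in shPRKCN libraries. RPS10 had 123, 127 and 173 and then 141, 163 and 134 counts, and RPL17 had 751, 697 and 749 and then 813, 722 and 737 counts. The other 74 had between 152 and 3631 CPM. The counting program and its rule for reads in overlapping genes are not given in the sources used here, so these 3 counts cannot be read as the output of the genes, and the part of the overlap in them was not tested. Their log2 fold changes were −0.13 ± 0.521 (standard error, SE), 0.01 ± 0.164 (SE) and 0.01 ± 0.073 (SE), and none passed the test.

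After PRKCN knockdown, ribosomal protein genes moved little and in both directions. At a Benjamini-Hochberg adjusted p under 0.05 with edgeR's quasi-likelihood test, 15 were higher and 9 lower in shPRKCN cells, and 53 were not called. The 24 called members are 31.2% of the 77, against 54.2% of all genes tested. By direction the members' shares were 19.5% higher and 11.7% lower, against 26.5% and 27.8% of all genes tested. None passed the study's fold limit of 0.58 on the log2 scale, in edgeR, DESeq2 or limma, which 16.7% of all genes tested passed at an adjusted p under 0.05, and 26 members had an unadjusted p under 0.05. The 3 libraries of 1 group lay entirely above those of the other in 16 members (20.8%), against 58.8% of all genes tested.

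These counts depended on single libraries. Without the first shNT library 7 members were called higher and 10 lower, without the second shNT library 6 and 7, and without the second shPRKCN library 6 and 14. Without the third shNT library they were 19 and 5, and without the first shPRKCN library 17 and 5. With library-size scaling in place of TMM they were 19 and 6. Of all genes tested, between 48.5% and 49.8% were called with any 1 library left out, and 54.1% with library-size scaling. RPL11, RPL19, RPL23A, RPL26, RPL30, RPL5, RPLP0, RPS27 and RPS6, of which 4 were higher and 5 lower, were called under each of the 18 alternatives tried.

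The sizes of the changes were small. The median log2 fold change of the 77 was 0.0054, against 0.0012 over all genes tested, and the middle 50% of members lay between −0.031 and 0.049, where the middle 50% of all genes tested lay between −0.27 and 0.22. The median size without regard to sign was 0.044 on the log2 scale for members and 0.246 for all genes tested. The median standard errors were 0.033 and 0.072, so the members were also measured more precisely. Of the 74 members without an overlapping readthrough gene, 10 (13.5%) moved by more than 0.1 on the log2 scale, up or down, against 76.6% of all genes tested. In each of these 74 the 95% confidence interval (1.96 standard errors) lay inside the fold limit, with −0.23 for RPL26 and 0.39 for RPL30 as the outermost bounds. RPL3, with 0.07, had the smallest change that was called.

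**Figure D2:**
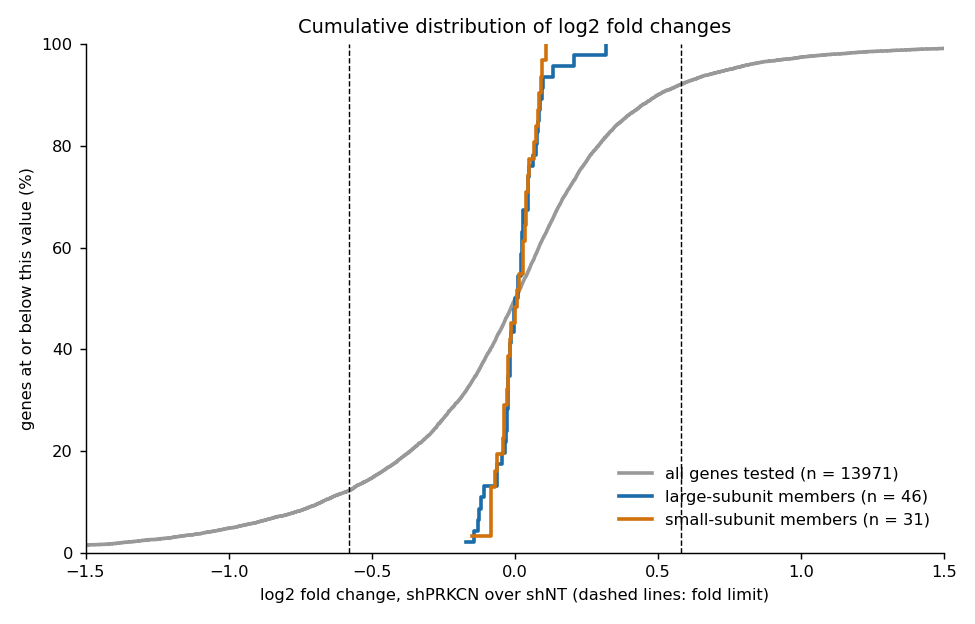
Cumulative share of genes (%) by log2 fold change, shPRKCN over shNT, for all 13971 genes tested (grey), the 46 large-subunit members (blue) and the 31 small-subunit members (orange), with dashed lines at the fold limit of 0.58. Both subunits rise steeply around 0, between −0.17 and 0.32, while the curve of all genes extends past both limits.

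Large and small subunit gave almost the same picture. Of the 46 large-subunit genes 10 were higher and 5 lower, and their median change was 0.0039 on the log2 scale. Of the 31 small-subunit genes 5 were higher and 4 lower, with a median of 0.0054. In all 15 of 46 (32.6%) and 9 of 31 were called, against 54.2% of all genes tested (26.5% higher and 27.8% lower). With single libraries left out the medians ran from −0.014 to 0.030 and from −0.022 to 0.038, so neither had a settled sign. The ratio of large-subunit to small-subunit counts, which needs no scaling between libraries, was 1.449, 1.468 and 1.467 in shNT libraries and 1.479, 1.473 and 1.473 in shPRKCN libraries. All 3 shPRKCN values were above all 3 shNT values, by 0.93% on the means of 1.461 ± 0.0108 and 1.475 ± 0.00394 (SD, n = 3 libraries each). The difference was 0.0136, and 0.0074 without the first shNT library. This ratio weighs each gene by its counts. RPLP0, 1 of the 46 large-subunit genes, had 103859, 104652 and 114574 counts in shNT and 125740, 130875 and 126426 in shPRKCN libraries. With the counts of RPLP0 taken out of the large-subunit sum, the ratios of the groups overlapped, and the second shNT library had the highest. The order of the groups in this ratio thus holds only with RPLP0 included.

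RPL30, a large-subunit protein on chromosome 8 (98041721 to 98045545, GRCh38.p14), changed most. Its level was 387, 377 and 400 CPM in shNT libraries and 457, 508 and 485 CPM in shPRKCN libraries. The groups did not overlap, and the mean rose from 388 ± 11.4 to 483 ± 26.0 CPM (SD, n = 3 each), a log2 fold change of 0.32 ± 0.035 (SE; adjusted p = 4.7e-12, edgeR). RPLP0, the protein on which the stalk of the large subunit is built, was next. It had 2941, 2846 and 3060 CPM in shNT and 3367, 3520 and 3329 CPM in shPRKCN libraries, again without overlap, with a log2 fold change of 0.21 ± 0.032 (SE; adjusted p = 6.9e-08, edgeR).

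The other proteins of the stalk, which recruits the GTPases of translation, had smaller values, and these were not tested against RPLP0. RPLP1 had 2266, 2581 and 2531 CPM in shNT and 2530, 2752 and 2611 CPM in shPRKCN libraries. These groups overlapped, and the log2 fold change of 0.10 passed the edgeR test (adjusted p = 0.015) and lost the call in DESeq2, in 2 fits on FPKM, and without the first shNT or the second shPRKCN library (adjusted p up to 0.409, edgeR). RPLP2, the partner of RPLP1, had a log2 fold change of 0.02 ± 0.034 (SE), and RPL12, at the base of the stalk, one of −0.01 ± 0.033 (SE), neither past the test.

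RPL19, which reaches across the subunit interface, had 1631, 1592 and 1638 CPM in shNT and 1734, 1830 and 1771 CPM in shPRKCN libraries, with a log2 fold change of 0.13 ± 0.032 (SE; adjusted p = 2.2e-04, edgeR). RPS27 of the small subunit had 1581, 1591 and 1616 CPM and then 1642, 1795 and 1719 CPM, with 0.11 ± 0.032 (SE; adjusted p = 0.0039, edgeR). Neither gene overlapped between the groups. The remaining members of the 10 largest rises were RPS14, RPL27A, RPS2, RPL14 and RPSA, with log2 fold changes between 0.09 and 0.10. RPS14 and RPS2 had no overlap between the groups, and each of the 5 lost its call without at least 1 library. RPS14 did so without the second shNT library (adjusted p = 0.0966, edgeR) and RPL27A without the first or the second (adjusted p up to 0.102, edgeR). RPS2 lost it without the first shNT or the second shPRKCN library (up to 0.178), RPSA without the second of either group (up to 0.217) and RPL14 without any of these 3 (up to 0.220). With the replicate number as a block, RPSA and RPL14 lost it as well. RPSA also lost it in limma on log2(FPKM + 1) and on log2(FPKM + 0.1). RPL29, RPS28, RPL13A and RPL3 were also called higher, by 0.07 to 0.08 on the log2 scale.

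**Figure D3:**
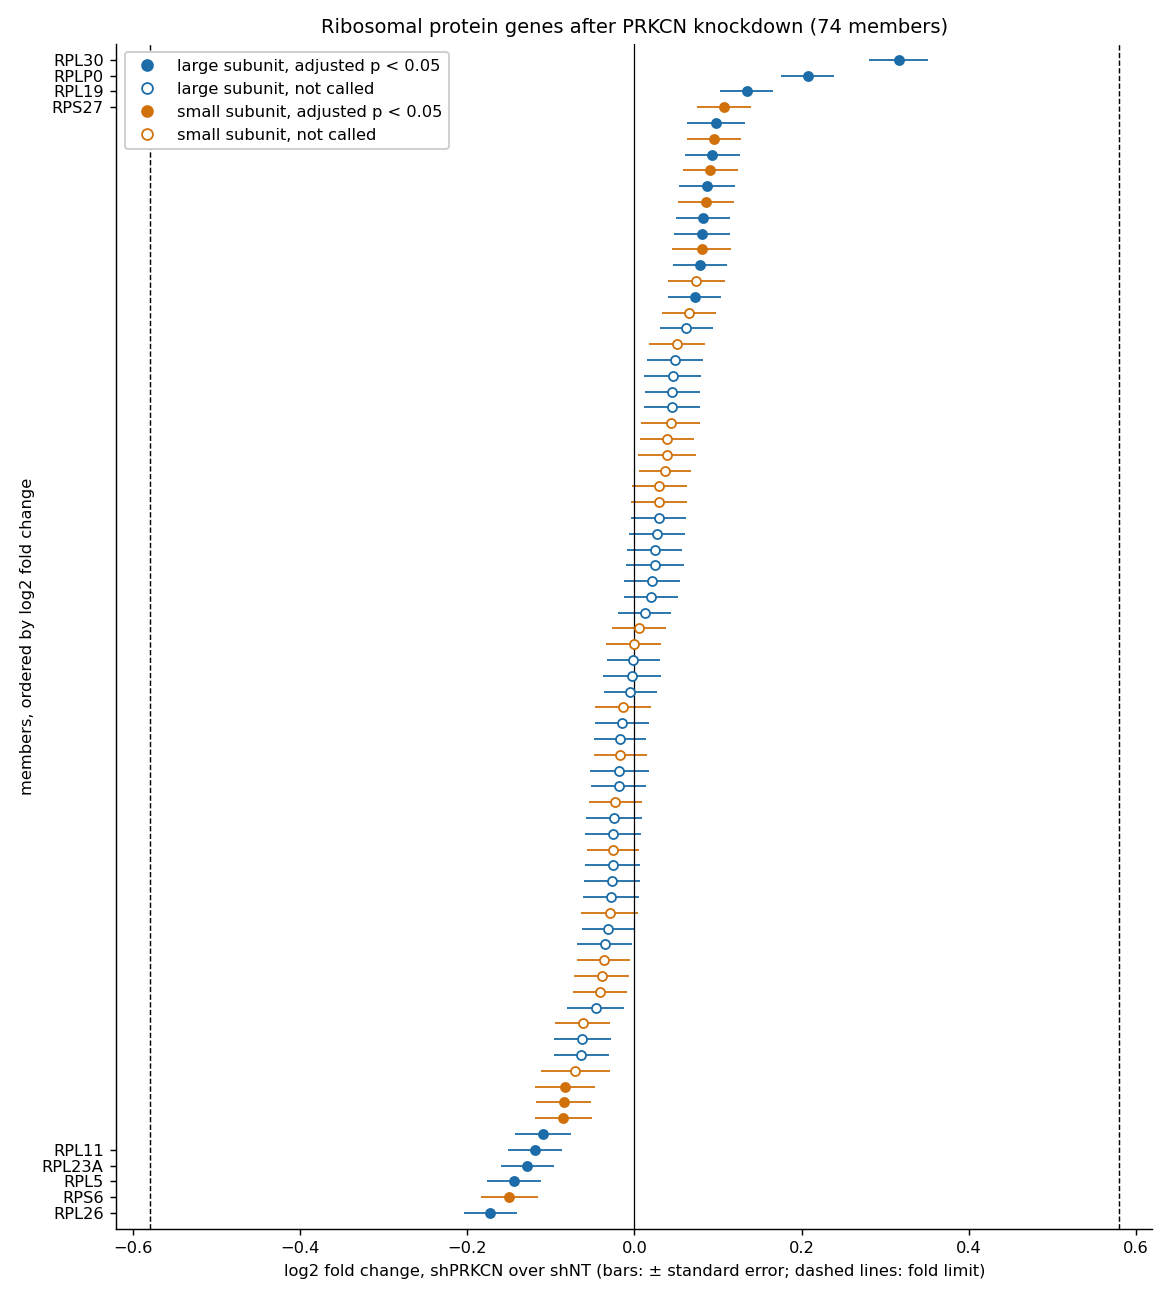
Log2 fold change, shPRKCN over shNT, with its standard error for the 74 members that no readthrough gene overlaps, ordered by size, in blue for the large and orange for the small subunit, filled where the adjusted p was under 0.05, with dashed lines at the fold limit of 0.58 and names on the 9 members called under every alternative. RPL30 (0.32) and RPLP0 (0.21) stand above the rest, and RPL26 (−0.17) is the lowest.

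Among the genes that fell, RPL26 changed most. Its product lies near the exit of the tunnel through which the growing chain leaves the ribosome. RPL26 had 1576, 1556 and 1636 CPM in shNT and 1408, 1432 and 1391 CPM in shPRKCN libraries, with a log2 fold change of −0.17 ± 0.032 (SE; adjusted p = 3.5e-06, edgeR). RPL23A, at the same exit, where it binds factors that meet the growing chain, had 2022, 1965 and 2080 CPM and then 1832, 1925 and 1795 CPM, with −0.13 ± 0.032 (SE; adjusted p = 5.3e-04, edgeR). In both genes every shPRKCN library was below every shNT library. Of the 9 members placed at the tunnel or its exit, these were the 2 that were lower, and RPL19 was the 1 that was higher, so that 33.3% were called, against 54.2% of all genes tested.

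RPS6, the ribosomal protein phosphorylated by S6 kinase downstream of mTORC1, had 1189, 1142 and 1215 CPM in shNT and 994, 1112 and 1091 CPM in shPRKCN libraries. The groups did not overlap, and the log2 fold change was −0.15 ± 0.034 (SE; adjusted p = 1.5e-04, edgeR). This is its mRNA level, and phosphorylation was not measured here.

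RPL5 and RPL11 form with 5S ribosomal RNA the 5S RNP, which outside the ribosome binds MDM2 and so links ribosome assembly to p53. Both were lower. RPL5 had 678, 672 and 678 CPM in shNT and 590, 623 and 624 CPM in shPRKCN libraries, with a log2 fold change of −0.14 ± 0.033 (SE; adjusted p = 1.3e-04, edgeR). RPL11 had 1390, 1368 and 1426 CPM and then 1242, 1316 and 1296 CPM, with −0.12 ± 0.032 (SE; adjusted p = 0.0012, edgeR). Neither gene overlapped between the groups.

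RPL36 (−0.11), RPS7 (−0.09) and RPS21 (−0.08) were also called lower, on the log2 scale. The groups overlapped in each of the 3, and each lost its call without the third shNT or the first shPRKCN library. The adjusted p in edgeR then reached 0.0672 for RPL36, and over all libraries left out in turn it reached 0.324 for RPS7 and 0.424 for RPS21. RPS7 lost its call under 9 of the 18 alternatives, DESeq2 and all 3 limma fits among them, and RPS21 under 14. RPL36 also lost its call in limma on log2(FPKM + 1) and on log2(FPKM + 0.1). RPS27A, made as a fusion with ubiquitin, had a log2 fold change of −0.03 ± 0.034 (SE) and was not called. Of the 18 members in which mutations are known from Diamond-Blackfan anemia, an inherited failure of red cell production, 2 were higher and 5 lower, and the median change was −0.03 on the log2 scale. That is 38.9% called, against 54.2% of all genes tested (26.5% higher and 27.8% lower). Of the 14 proteins of the head of the small subunit, 1 was higher and 1 lower, or 14.3% called against the same 54.2%.

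**Figure D4:**
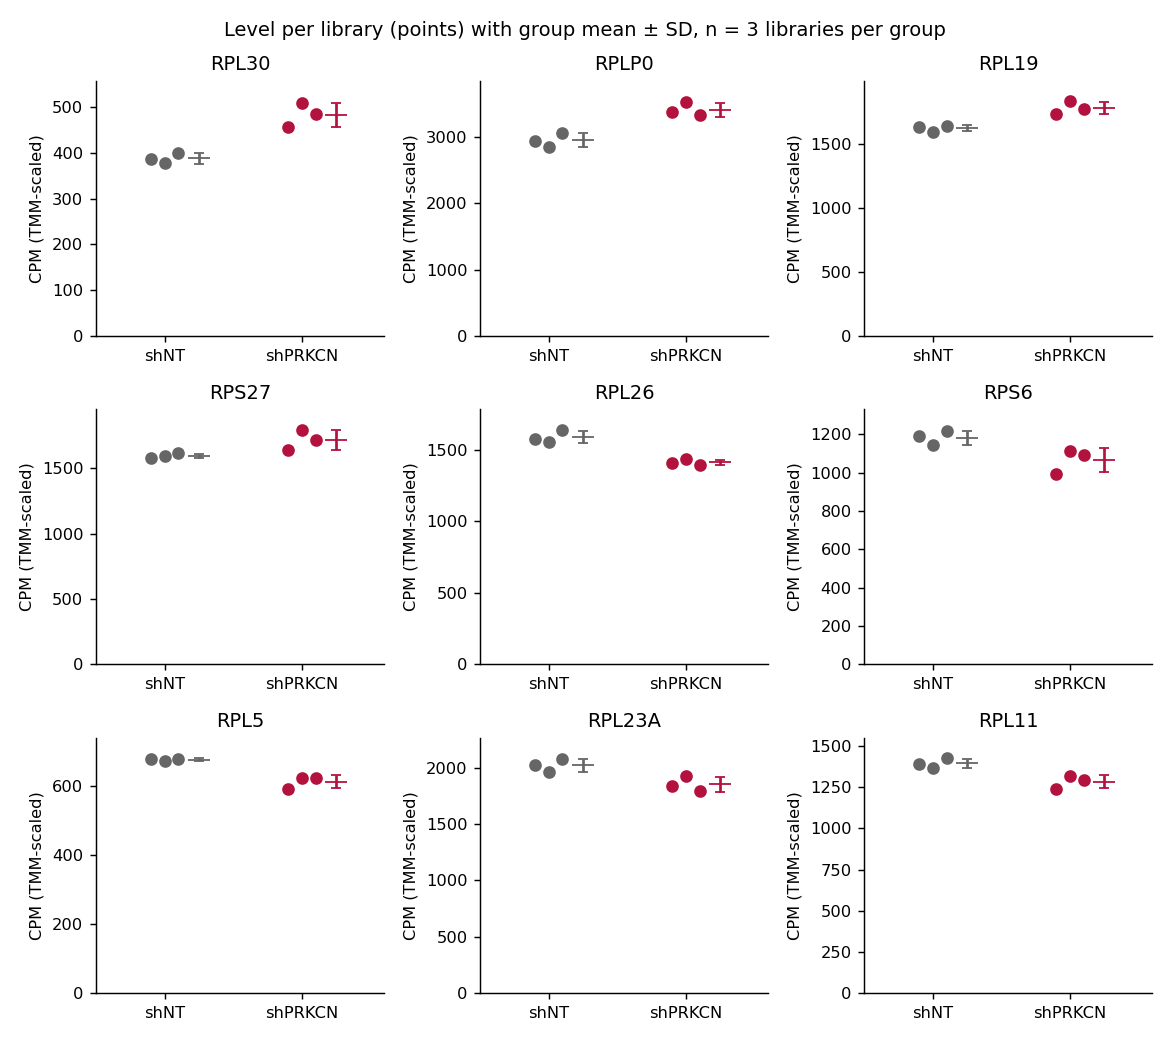
Level (TMM-scaled CPM, axes from 0) of the 9 members called under every alternative, in each of the 3 shNT (grey) and 3 shPRKCN (red) libraries, with group means ± SD. RPL30, RPLP0, RPL19 and RPS27 lie higher and RPL26, RPS6, RPL5, RPL23A and RPL11 lower in all 3 shPRKCN libraries than in any shNT library.

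Of 3 ribosomal proteins whose names fall outside the rule, 1 was higher and none lower. FAU, which encodes the small-subunit protein eS30 fused to a ubiquitin-like protein, was higher with a log2 fold change of 0.13 ± 0.034 (SE; adjusted p = 8.8e-04, edgeR). RACK1, a signaling scaffold on the small subunit, had −0.04 and did not pass the test. The pseudogene RPSAP58 was higher by 0.22 on the log2 scale (standard error 0.043), and its reads may in part belong to RPSA. Adding them to RPSA left all 24 members called.

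The paralogs, related genes of which some can replace a ribosomal protein in some tissues, included larger changes than any member. RPL39L, known for its place in germ cell ribosomes, had 22.1, 20.9 and 26.7 CPM in shNT and 15.5, 13.8 and 13.7 CPM in shPRKCN libraries, with a log2 fold change of −0.70 ± 0.080 (SE; adjusted p = 1.5e-11, edgeR). RPL36AL had 60.5, 61.9 and 64.3 CPM and then 47.8, 44.0 and 48.2 CPM, with −0.41 ± 0.050 (SE; adjusted p = 6.0e-11, edgeR). Both lay lower in every shPRKCN library. RPL39 itself did not pass the test. RPL7L1 (0.07), RPS27L (0.01), RPL22L1 (−0.0015) and RPL26L1 (−0.0048) were not called. RPL7L1 passed the test under 7 of the 18 alternatives. Where a paralog and a member are near-identical, their reads may be split between genes by the counting.

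Genes that act on ribosomal proteins or TOP mRNAs were listed for comparison. These and the lists that follow are read against the 26.5% of all tested genes called higher and the 27.8% called lower. Of 8 chaperones that escort single ribosomal proteins, 7 were higher and 0 lower (median log2 fold change 0.21), with PDCD2L at 0.33, LTV1 at 0.29, AAMP at 0.22 and PDCD2 at 0.21. Of 13 regulators of TOP mRNAs and the mTORC1 branch to them, 7 were higher and 3 lower (median 0.10). EIF4EBP2, a repressor of cap-dependent translation, had 147, 141 and 136 CPM in shNT and 242, 249 and 241 CPM in shPRKCN libraries, a log2 fold change of 0.79 ± 0.037 (SE; adjusted p = 3.4e-29, edgeR). Its relative EIF4EBP1 had 22.9, 22.0 and 24.6 CPM and then 15.05, 15.9 and 17.1 CPM, with −0.53 ± 0.074 (SE). The sign thus differed between these relatives, with no overlap of the groups in either.

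LARP1, which binds the TOP motif and the cap, had 390, 405 and 374 CPM in shNT and 499, 516 and 511 CPM in shPRKCN libraries, with a log2 fold change of 0.38 ± 0.034 (SE; adjusted p = 7.3e-16, edgeR). RPS6KB2, one of the S6 kinases, rose by 0.45 ± 0.041 (SE). Of 18 other TOP mRNAs, 4 were higher and 6 lower (median −0.02). In this list EEF1A1, the elongation factor that brings aminoacyl-tRNA, rose by 0.14 from 16080, 15561 and 15924 to 17315, 18093 and 17121 CPM, EIF3L rose by 0.14 and HNRNPA1 fell by 0.13. VIM, which encodes the intermediate filament vimentin, had −1.77 and was the largest change of the list. Of 12 RNAs that host small nucleolar RNAs, 3 were higher and 4 lower (median −0.07), among them SNHG16 (0.44), SNHG12 (−0.42), SNHG1 (−0.22) and SNHG6 (−0.20).

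Of 25 tested initiation factors 9 were higher and 8 lower (median 0.04). EIF4H, which stimulates the helicase EIF4A, had 331, 329 and 329 CPM in shNT and 166, 174 and 164 CPM in shPRKCN libraries, a log2 fold change of −0.97 ± 0.035 (SE; adjusted p = 3.3e-35, edgeR). EIF1AX, which takes part in start codon scanning, had −0.82 and EIF2B1, a subunit of the exchange factor for EIF2, −0.44. EIF3C was called higher at 0.57, but its shPRKCN libraries had 17.2, 18.1 and 38.9 CPM against 15.6, 20.6 and 13.7 CPM. Without the third shPRKCN library it was not called (adjusted p = 0.479, edgeR). With all libraries kept it was not called by DESeq2 (adjusted p = 0.263) or in any of the 3 limma fits. Of 10 elongation and release factors 5 were higher and 2 lower (median 0.09). DPH2 (0.54) and DPH1 (0.41), which make the diphthamide of elongation factor 2, and EIF5A (0.31) rose, and the release factor GSPT1 (−0.21) fell.

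Factors of late subunit maturation and export had 7 higher and 4 lower of 15 (median 0.05), led by EFL1 (0.35), MRTO4 (0.30), NOB1 (0.25) and BYSL (0.25). Factors that rescue stalled ribosomes or destroy their products had 4 higher and 6 lower of 14 (median −0.07). The 4 largest changes in that list were falls: MAP3K20 (−0.59), a kinase that senses ribosome collisions, ANKZF1 (−0.52), HBS1L (−0.40) and PELO (−0.34). PELO lost its call without the first shNT or the third shPRKCN library (adjusted p up to 0.161, edgeR). Of 4 factors bound to inactive ribosomes, IFRD2 (0.28) was called, and CCDC124 (−0.12), HABP4 (0.09) and SERBP1 (−0.04) were not. CCDC124 passed the test without the first shNT, the second shNT or the second shPRKCN library (adjusted p down to 0.0356, edgeR). Of 77 tested mitochondrial ribosomal proteins 28 were higher and 12 lower (median 0.07), with MRPL14 at 0.66, MRPL4 at 0.57, MRPL24 at 0.35 and MRPS17 at 0.35. In this list 51.9% were called, against 54.2% of all genes tested (26.5% higher and 27.8% lower).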

How the data were processed

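RNA-seq of 6 MM.1S libraries was used (shNT and shPRKCN, 3 each), grouped by the treatment in the sample labels. The authors deposited raw counts per gene, without normalization, and FPKM values that follow from the same counts, the library totals and 1 whole-number length per gene. The submitters' processing notes name FastQC, HISAT2, StringTie and the build GRCh38.p14; the counting program, annotation and strandedness are not given in the sources used here.

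Counts were scaled with TMM, filtered with filterByExpr and fitted with edgeR 4.0.16 (R 4.3.3), without a block. Its quasi-likelihood test was adjusted by Benjamini-Hochberg over the 13971 genes tested. The standard error is the log2 fold change divided by the square root of F. Calls use an adjusted p under 0.05, and the fold limit is the study's, a log2 fold change of 0.58. Other scalings tried were library size alone, RLE and the upper quartile. Other tests were DESeq2 1.42.0 and limma 3.58.1 on log2(FPKM + 1), with and without a minimum FPKM of 1, and on log2(FPKM + 0.1). Further alternatives left out single libraries, the filter, or genes under 10 counts in any library, added a replicate block or a gene length offset, or summed members with 1 pseudogene. The fits were tested on simulated counts. Library totals of 35625564 to 37730003 counts set the counting precision, and libraries of a group differed by more than sampling noise (chi-square per degree of freedom 3.45 to 4.97).

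Members and lists were chosen with earlier results of these data known. Named singly were the 10 largest changes in each direction, the stalk, 5S RNP, RPS27A and RPS6, the 3 highest and 3 lowest FPKM, PRKD3, the paralogs and ribosomal proteins outside the name rule, and up to 4 genes of each other list. Some items that this rule names are not reported here. Windows, coordinates and readthrough genes come from RefSeq (GRCh38.p14), transcript lengths and strands from GENCODE release 29. Python 3.11.15 was used for these steps.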

Additional observations from a re-analysis of the deposited data

How the results depend on the processing

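Among the 74 members without an overlapping readthrough gene, changes of about 0.07 on the log2 scale were at the edge of being called. At 3 libraries per group the median standard error was 0.033 for the 77 members and 0.072 for all genes tested. The members called numbered 24 in the edgeR fit and 13 to 25 over the 18 alternatives, with 20 by DESeq2 and 16 by limma on log2(FPKM + 1). Of all genes tested, 54.2% were called in the edgeR fit, 51.3% by DESeq2 and 50.8% by that limma fit. Over the 18 alternatives this share ran from 34.4% (no filter) to 60.7% (limma with the minimum FPKM). The number of members past the fold limit was 0 under every alternative. With the replicate number as a block, 8 members were higher and 7 lower (15 in all, each also called without it), but same-numbered libraries did not deviate together (correlations −0.042, −0.013 and 0.0038), so the number was not taken as a pairing. With single libraries left out, 6 to 19 members were higher and 5 to 14 lower. Limma on log2(FPKM + 1) and on log2(FPKM + 0.1) each called 5 members lower. Changes near 0, none of them called, changed sign. RPL12 was 0.0043 with library-size scaling and 0.0040 in all 3 limma fits. RPL22L1 was 0.00096 with RLE, 0.0065 with upper-quartile and 0.018 with library-size scaling, 0.00082 with DESeq2, 0.0048 with no filter, 0.00013 with the block, 0.0093 with the length offset, and 0.018 and 0.020 in the limma fits. RPL26L1 was 0.0033 with upper-quartile and 0.015 with library-size scaling, 0.0014 with no filter, 0.0078 with the length offset and 0.012 in the limma fits. With single libraries left out, the log2 fold changes ran from −0.028 to 0.19 for HABP4, −0.046 to 0.014 for RPL12, −0.047 to 0.051 for RPL17, −0.053 to 0.061 for RPL22L1, −0.072 to 0.038 for RPL26L1, −0.56 to 0.054 for RPL36A, −0.011 to 0.055 for RPLP2, −0.077 to 0.17 for RPS10, −0.043 to 0.00029 for RPS18, −0.053 to 0.012 for RPS27A and −0.0070 to 0.022 for RPS27L. The cause was not tested.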
